A study of Homo sapiens with 15 samples.

Results

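The baseline transcriptomes of the myeloma lines MM.1S and RPMI8226 were compared in monoculture (MONO). The comparison took the 3 MM.1S and the 2 RPMI8226 libraries of that condition, which are 5 of the 15 libraries of the study, and joined the tables of the lines on gene identifier. Of 20468 genes in the joined table, 10990 had a mean of at least 1 RPKM (reads per kilobase of gene model, scaled to the total of each library) in MONO of either line and were tested. Of these, 9299 reached 1 RPKM in both lines, 779 only in MM.1S and 912 only in RPMI8226. Both are established human lines derived from plasma cell myeloma. MM.1S MONO and RPMI8226 MONO were cells of each line cultured without stroma, and RNA was taken from sorted CD38+ CD90- cells. The remaining 10 libraries hold the same lines in a transwell above HS5 bone marrow stromal cells (TSW) or together with HS5 cells in the lower chamber (CO). MM.1S MONO 1, 2 and 3 held 9008977, 19050772 and 13265498 pair-end tags (PETs) on genes, and RPMI8226 MONO 1 and 2 held 12479855 and 14806319. At these depths 1 PET on a gene of 2 kb equalled between 0.0262 and 0.0555 RPKM.

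Plasma cells make and secrete antibody, and a malignant plasma cell clone usually keeps 1 light chain and at most 1 heavy chain. Transcription factors such as PRDM1, XBP1 and IRF4 hold that state while most B cell genes are shut off. Myeloma clones differ in their chromosomal rearrangements, many of which raise a D-type cyclin or a MAF factor, and in surface proteins that serve as drug targets.

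The lines shared a plasma cell profile but differed at immunoglobulin, adhesion and surface genes. MM.1S had high levels of IGLL5 in the lambda locus, IGHG1, the surface receptor SLAMF7, the adhesion receptor CD44, MHC class II genes and the chemokine CCL3. RPMI8226 had high levels of the light chain genes IGLC2, IGLC3 and IGKC, of fibronectin (FN1), of the cyclin CCND1 and of the keratin KRT18. In numbers, 2263 genes were higher in MM.1S, 20.6% of those tested, and 2503 were higher in RPMI8226, 22.8% of those tested, with limma's adjusted p below 0.05 and more than 1.5-fold apart. Together these calls covered 43.4% of the tested genes. The leading differences were far larger than the threshold, with 384 genes over 4-fold higher in MM.1S (3.49%) and 428 over 4-fold higher in RPMI8226 (3.89%), together 812 (7.39%). A gene that reached 1 RPKM in only 1 line passed the filter through that line, so the filter sets the direction of its difference. Counts of list members were therefore also taken among the 9299 genes at 1 RPKM or more in both lines, a step added after seeing the data, where 17.3% were higher in MM.1S and 18.3% in RPMI8226 with a median log2 difference of -0.03. Without RPMI8226 MONO 2 the calls higher in MM.1S came to 1507, and without RPMI8226 MONO 1 they came to 1533.

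The values of the lines did not overlap at 8173 genes (74.4%). The median size of the log2 difference was 0.52, and 5% of the genes lay below -1.71 and 5% above 1.63. Pearson's r across genes, which are not independent replicates, was 0.812 to 0.817 between libraries of different lines. It was 0.979 to 0.991 within MM.1S and 0.997 within RPMI8226. MM.1S MONO 1 stood apart from the other MM.1S libraries by gene length, with a median log2 deviation of 0.25 in the shortest 25% of genes and -0.32 in the longest 25%. The median line difference in these gene classes was 0.03 and -0.08.

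**Figure D1:**
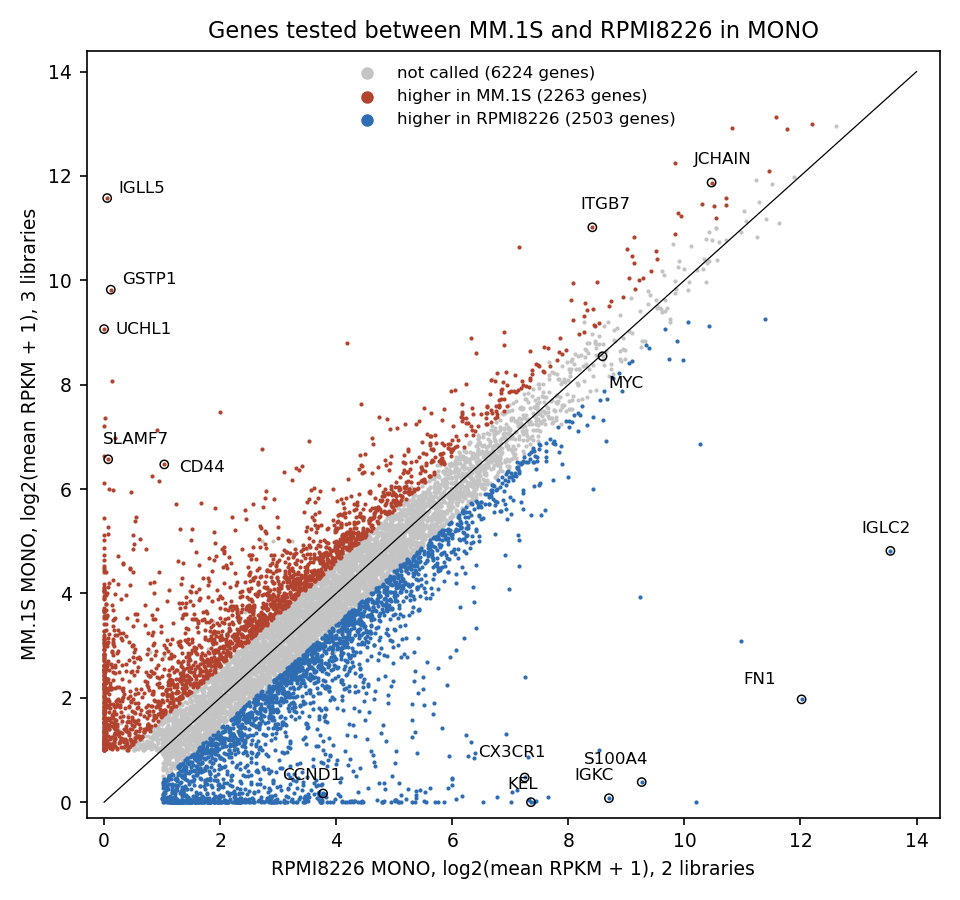
Each point is 1 of the 10990 tested genes, placed by log2(mean RPKM + 1) of the 2 RPMI8226 MONO libraries (x) and of the 3 MM.1S MONO libraries (y), with called genes in colour and the line of equal levels in black. IGLL5, GSTP1 and UCHL1 lie at the left edge, S100A4, KEL and IGKC at the lower edge and FN1 and IGLC2 far to the right, while MYC lies on the line.

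The tables of the lines were normalized separately, and the recovered PETs cannot test whether they share a scale. PETs were recovered from the libraries of both tables together, by seeking a shared unit per gene that made the values whole. Each value above 0 was a whole number of PETs within 0.05. At least 20 PETs in a library of each line were found at 11089 genes. At 100% of these the gene length implied by the values differed by under 0.1% between the tables. Both figures follow from the joint recovery, so no conclusion is drawn from them. Each library was taken as scaled to its own total with the same gene lengths in both tables. The median log2 difference, MM.1S minus RPMI8226, was -0.04 over all tested genes. Median-of-ratios scaling moved it by 0.03, quantile normalization by 0.04 and totals without immunoglobulin, mitochondrial and copied genes by 0.08, and the last 2 made it positive (0.00 and 0.04). Line, table and any batch cannot be told apart. Nothing in the labels says that replicates were separate cultures, so the adjusted p-values measure only the spread of these libraries.

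All 18 housekeeping genes passed the expression filter and reached 1 RPKM in both lines. Of these, 5 were higher in MM.1S (27.8%) and 4 in RPMI8226 (22.2%), beside 20.6% and 22.8% of all tested genes. Their median log2 difference was 0.07 and stayed positive in each scaling. Under quantile normalization 3 were higher in MM.1S. Without RPMI8226 MONO 1 the counts were 2 and 2, and without RPMI8226 MONO 2 they were 3 and 2. CYC1, a subunit of respiratory complex III, was read at 197, 209 and 186 RPKM in MM.1S and at 167 and 182 in RPMI8226. GUSB, a lysosomal enzyme with near-identical copies in the genome, was 2.13-fold higher in MM.1S (log2 difference 1.08 ± 0.10 SE, adjusted p = 0.00024). TBP, the TATA-binding protein, was 2.63-fold higher in RPMI8226 (log2 difference -1.24 ± 0.14 SE, adjusted p = 0.000606). So GUSB and TBP were not at a single ratio between the lines.

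The markers of the labelled cell type were present in both lines. All 9 plasma cell markers passed the filter, 1 of them only through MM.1S, which sets its direction. Among the 8 that reached 1 RPKM in both lines, 5 were higher in MM.1S and 0 in RPMI8226. Of all 9 markers, 6 were higher in MM.1S and 0 in RPMI8226. Their summed level was 1834, 1606 and 1496 RPKM in MM.1S and 1021 and 1035 in RPMI8226, and MZB1, a chaperone of antibody assembly, was the most abundant in both. B cell markers were low: their sum was 14.2, 15.7 and 14.7 RPKM in MM.1S and 9.06 and 8.70 in RPMI8226, and MS4A1, which encodes CD20, had no PET in any of the 5 libraries. The other marker lists had low sums except 2, although single genes of such cells outside the lists were high in a line, as CD8B and KEL in RPMI8226. In MM.1S the red cell genes GYPC and HBD, chosen after their values were seen, had means of 16.5 and 14.5 RPKM and no PET in RPMI8226. The T or NK markers summed to at most 3.38 RPKM, the myeloid markers to at most 3.17 and the erythroid markers to at most 0.208. Among 12 stromal markers, COL1A2, COL3A1, LUM and MMP1 had no PET in any library and THY1, which encodes CD90, reached at most 0.0669 RPKM. The stromal sum was 6.33, 8.77 and 8.50 RPKM in MM.1S but 3992 and 4312 in RPMI8226, nearly all of it FN1.

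The epithelial list was the other exception. Its summed level was 1.44, 1.31 and 1.58 RPKM in MM.1S and 217 and 225 in RPMI8226. KRT18, a keratin of simple epithelia whose gene has near-identical copies, was the most abundant in RPMI8226 with 133 and 143 RPKM and reached at most 0.217 in MM.1S. EPCAM, an epithelial adhesion molecule, was read at 1.23, 1.04 and 1.45 RPKM in MM.1S and at 79.8 and 77.7 in RPMI8226. CDH1, which encodes E-cadherin, had no PET in MM.1S and 1.26 and 1.498 RPKM in RPMI8226, and KRT19 had no PET in MM.1S and at most 0.0459 RPKM in RPMI8226. The KRT18 and EPCAM values of the lines did not overlap, and both RPMI8226 libraries were high at these genes.

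Immunoglobulin genes were strongly different between the lines. They have near-identical copies, so reads may be shared among them and each level is uncertain. Of 17 constant region and related genes, 11 passed the filter and 6 reached 1 RPKM in both lines. Of the 11, 6 were higher in MM.1S and 4 in RPMI8226, with a median log2 difference of 1.40, but 5 of them passed the filter through 1 line only. Among the 6 in both lines, 2 were higher in MM.1S and 3 in RPMI8226, and the median was -0.85, so the list had no common direction. IGLL5, whose gene overlaps the lambda constant gene IGLC1 by 320 bases, was read at 3608, 3474 and 2078 RPKM in MM.1S and at 0.0757 and 0 in RPMI8226. IGHG1, which encodes the heavy chain of IgG1, had 344, 219.8 and 242 RPKM in MM.1S against 0 and 0.204 in RPMI8226, that is at most 3 PETs. The MM.1S libraries were thus high and the RPMI8226 libraries at or near 0 at both genes.

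The light chain constant genes IGLC2, IGLC3 and IGKC ran the other way. IGLL5 overlaps IGLC1 and reads may be shared, so the whole lambda level of a line cannot be read from IGLC2 and IGLC3. IGLC2, a lambda constant gene, was read at 42.3, 10.7 and 28.5 RPKM in MM.1S and at 11846 and 12132 in RPMI8226. IGLC3, its neighbour, had 7.63, 10.0 and 4.95 RPKM in MM.1S and 1945 and 2101 in RPMI8226. IGKC, the kappa constant gene, had 408 and 421 RPKM in RPMI8226 and at most 1 PET in each MM.1S library. RPMI8226 thus held PETs of both light chain types, with IGLC2 the higher per length. In both lines the IgA genes were low, with IGHA1 at most 0.732 RPKM and IGHA2 at most 1.09, and IGHM and IGHD had no PET in MONO. JCHAIN, which joins antibody units, was 2.65-fold higher in MM.1S (adjusted p = 0.000725), a call lost without either RPMI8226 library.

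**Figure D2:**
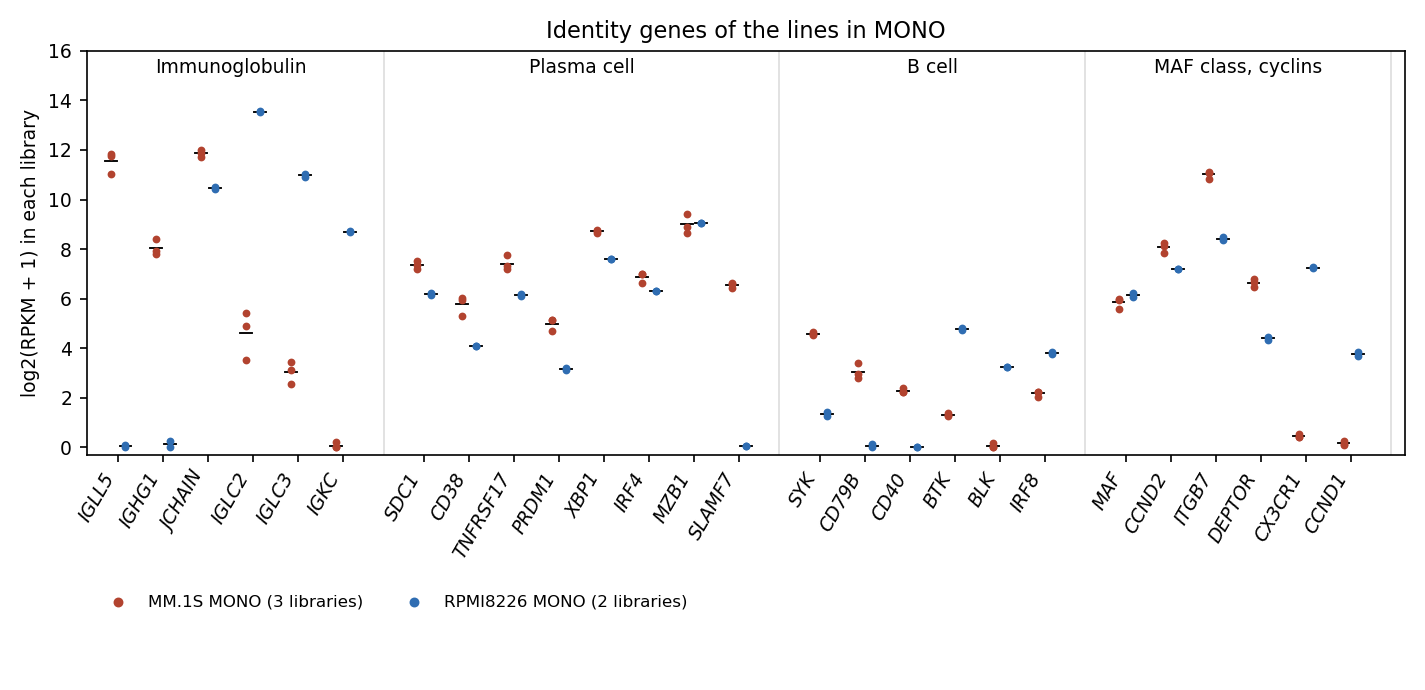
Each point is 1 MONO library (3 of MM.1S, 2 of RPMI8226) at its log2(RPKM + 1), and black bars are group means. IGLL5 and IGHG1 are high in MM.1S, IGLC2, IGLC3, IGKC and CX3CR1 are high in RPMI8226, and MZB1 and MAF lie at like levels in both lines.

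Genes of plasma cell identity were higher in MM.1S or at like levels. Of 14 genes in the list, 12 passed the filter and 10 reached 1 RPKM in both lines. Of the 12, 8 were higher in MM.1S and 0 in RPMI8226, with a median log2 difference of 1.15. But 2 passed the filter only through MM.1S, which sets their direction. Among the 10 in both lines, 6 were higher in MM.1S (60%) and 0 in RPMI8226, with a median of 0.96. Over all genes at 1 RPKM or more in both lines the shares were 17.3% and 18.3%. PRDM1, the repressor that ends the B cell programme, was read at 24.7, 34.2 and 34.2 RPKM in MM.1S and at 7.81 and 8.34 in RPMI8226, a 3.84-fold difference (log2 1.80 ± 0.17 SE, adjusted p = 0.000243). SDC1, which encodes the plasma cell proteoglycan CD138, was 2.28-fold higher in MM.1S (adjusted p = 0.000506), and CD38, the ectoenzyme by which the cells had been sorted, was 3.44-fold higher (adjusted p = 0.00133). XBP1, the factor that drives secretory capacity and a gene with near-identical copies, was 2.20-fold higher in MM.1S. The MM.1S and RPMI8226 values of these genes did not overlap. MZB1 was read at 682, 479.8 and 402 RPKM in MM.1S and at 523 and 536 in RPMI8226, so its ranges overlapped. The factor IRF4 had an adjusted p of 0.0185 but missed the fold threshold (log2 difference 0.57 ± 0.15 SE), which it passed under median-of-ratios scaling, under totals without copied genes and without MM.1S MONO 1.

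The secretory machinery did not follow the same direction throughout. All 33 secretory pathway genes passed the filter and reached 1 RPKM in both lines. Of these, 7 were higher in MM.1S (21.2%) and 4 in RPMI8226 (12.1%), beside 20.6% and 22.8% of all tested genes. The median log2 difference was -0.01, which turned positive under median-of-ratios scaling (0.03) and totals without copied genes (0.08). Without RPMI8226 MONO 1, 2 genes were higher in RPMI8226. HSPA5, the main chaperone of the endoplasmic reticulum and a gene with copies, was read at 244, 227 and 230.3 RPKM in MM.1S and at 481 and 487 in RPMI8226. HERPUD1, part of the pathway that removes misfolded proteins, had 158, 179.9 and 161 RPKM in MM.1S against 69.1 and 71.1 in RPMI8226. TENT5C, a polymerase that stabilizes messages of secreted proteins, was 3.65-fold higher in MM.1S (log2 difference 1.84 ± 0.15 SE, adjusted p = 0.000113). The chaperone CALR, at 905 ± 152 RPKM (SD, n = 3) in MM.1S and 1064 ± 7.69 (SD, n = 2) in RPMI8226, did not pass the test (adjusted p = 0.274).

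Genes of B cell identity split in both directions. Of 27 genes in the list, 17 passed the filter and 8 reached 1 RPKM in both lines. Of the 17, 8 were higher in MM.1S and 6 in RPMI8226, with a median log2 difference of -0.26. But 5 passed the filter only through MM.1S and 4 only through RPMI8226, which sets their direction. Among the 8 in both lines, 3 were higher in MM.1S and 2 in RPMI8226, with a median of -0.32. SYK, a kinase downstream of the B cell receptor, was read at 22.003, 24.3 and 22.9 RPKM in MM.1S and at 1.42 and 1.72 in RPMI8226. BTK, another kinase of the same pathway, had 1.65, 1.48 and 1.39 RPKM in MM.1S and 27.3 and 25.3 in RPMI8226. SYK was thus high in MM.1S and BTK high in RPMI8226, by 14.7-fold and 17.5-fold. The receptor CD40 had 3.73, 4.24 and 3.66 RPKM in MM.1S and no PET in RPMI8226, which made it at least 39.6-fold higher in MM.1S against a floor of 3 PETs per library. CD79B, a signalling chain of the B cell receptor, had 9.504, 6.76 and 5.98 RPKM in MM.1S and 0 and 0.106 in RPMI8226. The Src family kinase BLK had at most 0.123 RPKM in MM.1S and 8.54 and 8.39 in RPMI8226. FCER2, which encodes the IgE receptor CD23, had no PET in MM.1S and was at least 32.8-fold higher in RPMI8226. PAX5, a factor that defines B cells, reached at most 0.103 RPKM in the 5 libraries.

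Both lines expressed MAF. Of 11 targets of recurrent translocations, 7 passed the filter and 5 reached 1 RPKM in both lines. But 1 passed the filter only through MM.1S and 1 only through RPMI8226, which sets their direction. Among the 5 in both lines, 1 was higher in MM.1S and 0 in RPMI8226. The share called among the 7 was 42.9%, about that of all tested genes (43.4%). Of these 7, 2 were higher in MM.1S and 1 in RPMI8226, with a median log2 difference of 0.13. Without either RPMI8226 library, 1 was higher in MM.1S. MAF, a leucine zipper factor raised by some translocations, was read at 47.6, 62.4 and 61.3 RPKM in MM.1S and at 73.1 and 66.7 in RPMI8226 (adjusted p = 0.142). FGFR3, a receptor tyrosine kinase, stayed at or below 0.0706 RPKM in the 5 libraries. MYC had 345, 402 and 371 RPKM in MM.1S and 384 and 384 in RPMI8226 and did not pass the test (adjusted p = 0.77). CCND1, a D-type cyclin, had at most 0.200 RPKM in MM.1S and 13.5 and 11.8 in RPMI8226, a 103-fold difference (log2 -3.61 ± 0.11 SE, adjusted p = 2.4e-06). CCND2, the most abundant D-type cyclin of both lines and a gene with copies, was 1.85-fold higher in MM.1S, a call lost without either RPMI8226 library.

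Genes that go with MAF in myeloma were higher in MM.1S or not called, apart from CX3CR1. All 7 of the list passed the filter and 6 reached 1 RPKM in both lines. Of the 7, 3 were higher in MM.1S and 1 in RPMI8226, with a median log2 difference of 0.23. The 1 higher in RPMI8226, CX3CR1, passed the filter only through that line, which sets its direction. Among the 6 in both lines, 3 were higher in MM.1S and 0 in RPMI8226, with a median of 0.55. ITGB7, an integrin subunit of the homing receptor of gut lymphocytes, was read at 2226, 2164 and 1822 RPKM in MM.1S and at 326 and 354 in RPMI8226, a 6.09-fold difference. DEPTOR, an inhibitor of mTOR, was 4.94-fold higher in MM.1S (log2 difference 2.25 ± 0.13 SE, adjusted p = 2.5e-05). The chemokine receptor CX3CR1 had 0.455, 0.359 and 0.350 RPKM in MM.1S and 153 and 149 in RPMI8226, a 389-fold difference. CCR1, another chemokine receptor, had 53.6, 66.9 and 72.2 RPKM in MM.1S and 73.1 and 66.0 in RPMI8226, so its ranges overlapped.

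Surface proteins under study as myeloma targets were mostly higher in MM.1S. Of 31 genes, 25 passed the filter and 18 reached 1 RPKM in both lines, with 17 higher in MM.1S and 3 in RPMI8226 and a median log2 difference of 1.45. Of the 25, 6 passed the filter only through MM.1S and 1 only through RPMI8226, and among the 18 in both lines 11 were higher in MM.1S and 2 in RPMI8226, with a median of 1.14. SLAMF7, the target of elotuzumab, was read at 86.5, 99.0 and 96.6 RPKM in MM.1S and at 0.0546 and 0.0460 in RPMI8226, at most 2 PETs a library. TNFRSF17, which encodes BCMA, had 216, 145 and 157 RPKM in MM.1S against 73.0 and 68.8 in RPMI8226, a 2.44-fold difference (adjusted p = 0.00182). GPRC5D, an orphan receptor, had 11.6, 11.3 and 10.2 RPKM in MM.1S and 0 and 0.0826 in RPMI8226. At SLAMF7 and GPRC5D the RPMI8226 libraries were near 0, while TNFRSF17 was well above it in both lines. The related receptors LY9 and CD48 were 49.9-fold and 11.3-fold higher in MM.1S. CD44, a receptor for hyaluronan, was read at 69.2, 97.4 and 96.8 RPKM in MM.1S and at 0.943 and 1.16 in RPMI8226, an 83.5-fold difference. In the other direction, NCAM1, which encodes CD56, had at most 0.0781 RPKM in MM.1S and 10.6 and 10.0 in RPMI8226. The ligand CD70 was 2.60-fold higher in RPMI8226 (adjusted p = 0.000527), and CD47, a signal against phagocytosis, did not pass the test (log2 difference 0.05 ± 0.12 SE, adjusted p = 0.774).

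Adhesion molecules differed in both directions. Of 35 genes, 25 passed the filter and 16 reached 1 RPKM in both lines. Of the 25, 13 were higher in MM.1S and 7 in RPMI8226, with a median log2 difference of 0.83. But 4 passed the filter only through MM.1S and 5 only through RPMI8226, which sets their direction. Among the 16 in both lines, 9 were higher in MM.1S and 2 in RPMI8226, with a median of 0.84. ITGAL, the alpha chain of LFA-1, was read at 28.7, 27.7 and 25.1 RPKM in MM.1S and at 2.97 and 3.44 in RPMI8226. ICAM1, a ligand of LFA-1, had 3.45, 4.35 and 3.41 RPKM in MM.1S and 58.4 and 60.5 in RPMI8226, a 15.9-fold difference. ICAM3, another ligand of LFA-1, was 10.6-fold higher in MM.1S. ITGB2, the beta chain of LFA-1, had at most 0.0225 RPKM in MM.1S and 0.454 and 0.625 in RPMI8226. The integrin ITGA8 had no PET in RPMI8226 and was at least 340.0-fold higher in MM.1S. FN1, an extracellular matrix protein bound by integrins, was read at 1.59, 3.79 and 3.38 RPKM in MM.1S and at 3989.7 and 4309.9 in RPMI8226, a 1422-fold difference (log2 -10.10 ± 0.27 SE, adjusted p = 1.49e-06). FN1 took 3.67% and 3.96% of all PETs of the RPMI8226 libraries.

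Chemokines and their receptors were also line-specific in level. Of 27 genes, 16 passed the filter and 10 reached 1 RPKM in both lines. Of the 16, 8 were higher in MM.1S and 6 in RPMI8226, with a median log2 difference of 0.35. But 2 passed the filter only through MM.1S and 4 only through RPMI8226, which sets their direction. Among the 10 in both lines, 6 were higher in MM.1S and 2 in RPMI8226, with a median of 1.20. CCL3, a chemokine that attracts monocytes and a gene with near-identical copies, was read at 189, 136 and 117 RPKM in MM.1S and had no PET in RPMI8226. RGS1, a brake on chemokine receptor signalling, had 183, 171 and 175 RPKM in MM.1S and 2.63 and 3.32 in RPMI8226. CXCL12, the ligand of CXCR4, had at most 0.0285 RPKM in MM.1S and 18.6 and 19.3 in RPMI8226. CXCR4 itself was 1.78-fold higher in MM.1S (log2 difference 0.82 ± 0.11 SE, adjusted p = 0.00141). The receptor CCR2 was 87.5-fold higher in RPMI8226 and CCR10 was 8.28-fold higher in MM.1S.

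**Figure D3:**
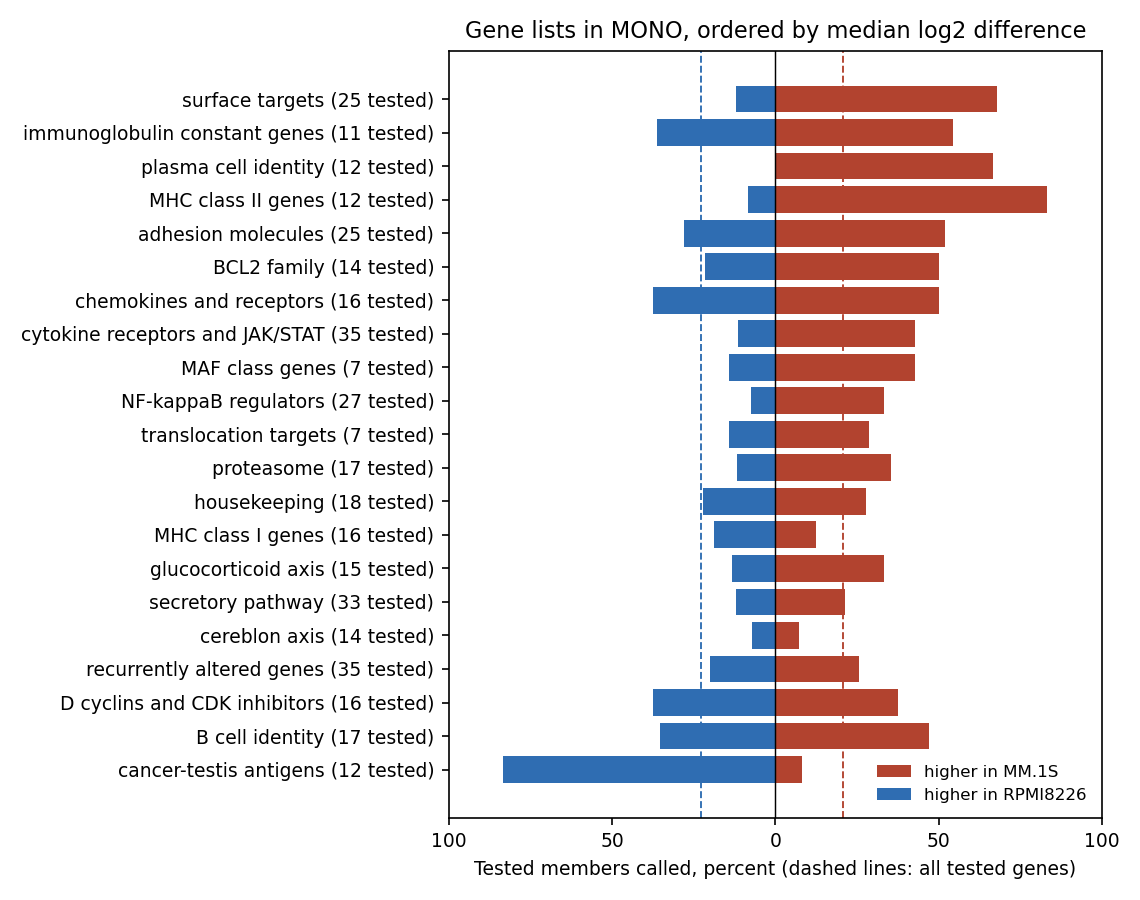
Bars give the percent of tested members called higher in MM.1S (right) or in RPMI8226 (left) in each gene list described here with at least 5 tested members, and dashed lines give the shares over all tested genes, 20.6% and 22.8%. MHC class II genes, surface targets and plasma cell genes have more calls in MM.1S, while most cancer-testis antigens passed the filter only through RPMI8226, which sets the direction of their bar.

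Antigen presentation differed by class. Of 13 MHC class II genes, 12 passed the filter and 10 reached 1 RPKM in both lines, with 10 higher in MM.1S and 1 in RPMI8226 and a median log2 difference of 1.01. Without RPMI8226 MONO 1, 5 were higher in MM.1S. HLA-DRA, the alpha chain of HLA-DR, was read at 445, 453 and 407 RPKM in MM.1S and at 118 and 118 in RPMI8226. HLA-DPA1, the alpha chain of HLA-DP, had 84.3, 79.3 and 72.7 RPKM in MM.1S and 7.25 and 7.82 in RPMI8226, a 10.5-fold difference. CD74, the invariant chain that loads with class II, was 1.997-fold higher in MM.1S (adjusted p = 0.00141). HLA-DQA1 was the gene higher in RPMI8226, with at most 0.334 RPKM in MM.1S and 2.03 and 3.25 in RPMI8226. It passed the filter only through RPMI8226 and 1 other class II gene only through MM.1S, which sets their direction. Among the 10 class II genes in both lines, 9 were higher in MM.1S (90%) and 0 in RPMI8226, with a median of 1.01. Over all genes at 1 RPKM or more in both lines the shares were 17.3% and 18.3%. All 16 class I genes passed the filter and 15 reached 1 RPKM in both lines, with 2 higher in MM.1S and 3 in RPMI8226 and a median log2 difference of 0.03, which turned to -0.03 under quantile normalization. Without MM.1S MONO 3 these counts were 4 and 2, and without either RPMI8226 library they were 1 and 1. B2M, the light chain of class I, had 944, 702 and 732 RPKM in MM.1S and 829 and 790.2 in RPMI8226, and NLRC5, the class I transactivator, was 4.54-fold higher in RPMI8226 (adjusted p = 0.000304).

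Cancer-testis antigens, which normal adult tissue expresses mainly in the germline, were read above 1 RPKM at more genes in RPMI8226. Of 38 genes, 12 passed the filter, 10 of them only through RPMI8226, 1 only through MM.1S and 1 in both lines, so the direction of most calls here follows from the filter. Of the 12, 10 were higher in RPMI8226 and 1 in MM.1S (2 without MM.1S MONO 3, under median-of-ratios scaling and under totals without copied genes), and the median log2 difference was -3.03, or -2.77 with genes off in MM.1S at the floor of 3 PETs per library. MAGEA4 was read at 34.1 and 33.7 RPKM in RPMI8226 and had no PET in MM.1S, which made it at least 309-fold higher in RPMI8226. MAGEA12, a neighbour of MAGEA4 on chromosome X, was at least 152-fold higher and GAGE2A at least 67.6-fold higher in RPMI8226. CTAG1A and CTAG1B, which encode NY-ESO-1, had 12.96 and 12.1 RPKM and 7.93 and 9.93 RPKM in RPMI8226 and no PET in MM.1S. MAGEA1, the most abundant member in both lines, was read at 75.7, 70.0 and 69.6 RPKM in MM.1S and at 48.2 and 48.2 in RPMI8226, and missed the fold threshold, which it passed under median-of-ratios scaling, under totals without copied genes and without MM.1S MONO 3. PRAME, at 1.36, 1.30 and 1.57 RPKM, was the gene higher in MM.1S.

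Apoptosis regulators of the BCL2 family at 1 RPKM or more in both lines were higher in MM.1S or not called. Of 16 genes, 14 passed the filter and 11 reached 1 RPKM in both lines. Of the 14, 7 were higher in MM.1S and 3 in RPMI8226, beside 20.6% and 22.8% of all tested genes. Their median log2 difference was 0.52. But 3 passed the filter only through RPMI8226, which sets their direction. Among the 11 in both lines, 7 were higher in MM.1S and 0 in RPMI8226, with a median of 0.95. BCL2L1, which encodes the survival protein BCL-xL, was read at 140.5, 128 and 124 RPKM in MM.1S and at 50.3 and 51.8 in RPMI8226. MCL1, the survival factor on which many myeloma cells depend, was 1.68-fold higher in MM.1S (adjusted p = 0.00158). BCL2 had 10.7, 13.5 and 14.5 RPKM in MM.1S against 18.1 and 18.0 in RPMI8226 and missed the fold threshold. The death-promoting BMF and BCL2L11 were 9.45-fold and 2.503-fold higher in MM.1S, and the death-promoting BIK was 22.5-fold higher in RPMI8226.

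Cell cycle genes were called in both directions. Of 18 D cyclins, cyclin-dependent kinase (CDK) inhibitors and related genes, 16 passed the filter and 14 reached 1 RPKM in both lines. Of the 16, 6 were higher in each line, with a median log2 difference of -0.19. But 2 passed the filter only through RPMI8226, which sets their direction. Among the 14 in both lines, 6 were higher in MM.1S and 4 in RPMI8226, with a median of -0.02. CDKN2A, which encodes the inhibitor p16, had no PET in MM.1S and 12.7 and 13.9 RPKM in RPMI8226, which made it at least 316-fold higher in RPMI8226. Its neighbour CDKN2B had no PET in MM.1S and 0.905 and 1.05 RPKM in RPMI8226. CDKN2C, which encodes p18, had no PET in any of the 5 libraries. CDKN1B, which encodes the inhibitor p27, was 2.72-fold higher in MM.1S (log2 difference 1.40 ± 0.11 SE, adjusted p = 0.000119). CCNE2 was 5.79-fold higher in RPMI8226 and its paralogue CCNE1 was 1.94-fold higher in MM.1S.

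NF-kappaB regulators at 1 RPKM or more in both lines were higher in MM.1S or not called. Of 29 genes, 27 passed the filter and 24 reached 1 RPKM in both lines. Of the 27, 9 were higher in MM.1S and 2 in RPMI8226, beside 20.6% and 22.8% of all tested genes. Their median log2 difference was 0.22. But 1 passed the filter only through MM.1S and 2 only through RPMI8226, which sets their direction. Among the 24 in both lines, 8 were higher in MM.1S and 0 in RPMI8226, with a median of 0.27. TRAF3, which restrains the noncanonical pathway and is recurrently lost in myeloma, was read at 6.71, 9.79 and 10.3 RPKM in MM.1S and at 1.57 and 1.88 in RPMI8226. NFKB2 and RELB, the subunits of that pathway, were 2.28-fold and 3.46-fold higher in MM.1S. TNFAIP3, a deubiquitinase that ends the signal, was 5.86-fold higher in MM.1S (adjusted p = 0.000258). TRAF1, an adaptor, was 17.7-fold higher in RPMI8226, and the inhibitor NFKBIA was read at 20.8 ± 3.01 RPKM (SD, n = 3) in MM.1S and 20.1 ± 1.10 (SD, n = 2) in RPMI8226 (adjusted p = 0.85).

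Genes recurrently altered in myeloma were called about as often as all tested genes. Of 40 genes, 35 passed the filter and all 35 reached 1 RPKM in both lines, with 9 higher in MM.1S (25.7%) and 7 in RPMI8226 (20%), beside 20.6% and 22.8% of all tested genes, and a median log2 difference of -0.07, which turned to 0.01 under totals without copied genes. Without either RPMI8226 library, 2 were higher in RPMI8226. LTB, which encodes lymphotoxin beta, was read at 4.35, 2.11 and 1.69 RPKM in MM.1S and at 48.1 and 52.4 in RPMI8226. WWOX, a tumour suppressor at a fragile site near MAF, was 3.44-fold higher in RPMI8226 (log2 difference -1.17 ± 0.17 SE, adjusted p = 0.00167). NRAS, a growth signalling GTPase, had 26.3, 33.5 and 35.2 RPKM in MM.1S and 30.9 and 27.1 in RPMI8226, so its ranges overlapped.

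Cytokine receptor genes included both shared and line-specific members. Of 44 genes, 35 passed the filter and 29 reached 1 RPKM in both lines. But 3 passed the filter only through MM.1S and 3 only through RPMI8226, which sets their direction. Among the 29 in both lines, 12 were higher in MM.1S and 2 in RPMI8226, with a median log2 difference of 0.28. Of all 35, 15 were higher in MM.1S and 4 in RPMI8226, with a median of 0.28. The share called was 54.3%, beside 43.4% of all tested genes. The count higher in RPMI8226 was 2 without RPMI8226 MONO 1 and in each of the 3 other scalings. JAK3, a kinase that signals from the common gamma chain, was read at 4.38, 4.47 and 4.37 RPKM in MM.1S and had no PET in RPMI8226. IL2RG, that gamma chain, had 179.7, 199 and 181 RPKM in MM.1S and 44.7 and 45.0 in RPMI8226. PTPN6, a phosphatase that dampens these receptors, was 24.0-fold higher in MM.1S (log2 difference 4.07 ± 0.13 SE, adjusted p = 2.49e-06). The myeloma growth factor IGF1 was 34.6-fold higher in MM.1S, while its receptor IGF1R had 5.01, 9.26 and 8.01 RPKM in MM.1S and 5.22 and 6.36 in RPMI8226. STAT3, which carries the signal of IL-6, did not pass the test (log2 difference -0.18 ± 0.11 SE, adjusted p = 0.192), and CISH, a feedback inhibitor of STAT5, was 18.2-fold higher in RPMI8226.

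Of the tested genes of the cereblon axis, 14.3% were called, beside 43.4% of all tested genes, a contrast that was not tested. All but 1 of 15 genes of this axis, through which lenalidomide acts, passed the filter, and each of these 14 reached 1 RPKM in both lines. Called were 1 gene higher in MM.1S, or 2 under median-of-ratios scaling and under totals without copied genes, and 1 higher in RPMI8226. The median log2 difference was -0.06, which turned to 0.03 under totals without copied genes. Without MM.1S MONO 1 the counts were 2 and 1, without RPMI8226 MONO 1 they were 1 and 0, and without RPMI8226 MONO 2 they were 0 and 0. CRBN, the drug's receptor, was read at 11.4, 12.5 and 11.4 RPKM in MM.1S and at 12.3 and 11.99 in RPMI8226. All 17 proteasome genes passed the filter and reached 1 RPKM in both lines, with 6 higher in MM.1S and 2 in RPMI8226. The share called was 47.1%, about that of all tested genes (43.4%). Their median log2 difference was 0.08, which turned to -0.02 under quantile normalization. Without MM.1S MONO 1 the counts were 4 and 4, and without either RPMI8226 library they were 2 and 0. PSMB5, the catalytic subunit that bortezomib binds, had 39.6, 34.2 and 32.6 RPKM in MM.1S and 49.6 and 55.7 in RPMI8226, a log2 difference of -0.56 ± 0.13 SE that missed the fold threshold and passed it without MM.1S MONO 1.

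Of 18 glucocorticoid genes, 15 passed the filter and 14 reached 1 RPKM in both lines. But 1 passed the filter only through MM.1S, which sets its direction. Among the 14 in both lines, 4 were higher in MM.1S and 2 in RPMI8226, with a median log2 difference of -0.04. The share called among the 15 was 46.7%, about that of all tested genes (43.4%). Of these 15, 5 were higher in MM.1S and 2 in RPMI8226, with a median of 0.02. Without RPMI8226 MONO 1, 0 were higher in RPMI8226, and without RPMI8226 MONO 2 or MM.1S MONO 1 it was 1. NR3C1, the receptor itself and a gene with copies, was read at 8.40, 16.2 and 16.1 RPKM in MM.1S and at 15.6 and 15.7 in RPMI8226. The ranges of NR3C1 overlapped, and it did not pass the test (adjusted p = 0.481). TSC22D3, a classical glucocorticoid target that encodes GILZ, was 5.84-fold higher in MM.1S (log2 difference 2.06 ± 0.16 SE, adjusted p = 9.13e-05).

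Some genes were on in a line and off in the other, here a mean of at least 10 RPKM against at most 3 PETs in each MONO library. There were 47 such genes on in MM.1S, 6 of them immunoglobulin genes, with a median level of 16.5 RPKM, and 57 on in RPMI8226, 5 of them immunoglobulin genes, with a median of 26.7 RPKM. No PET of the other line was found at 31 and 28 of them. On chromosome X lay 3 of those on in MM.1S and 8 of those on in RPMI8226, and on chromosome 4 lay 7 and 1, beside 364 and 386 of the 10990 tested genes. UCHL1, a neuronal deubiquitinase, was read at 604, 507 and 493 RPKM in MM.1S and had no PET in RPMI8226, which made it at least 2715-fold higher in MM.1S. PARM1, a mucin-like Golgi protein, had 125, 183 and 181 RPKM in MM.1S and at most 1 PET in RPMI8226. GSTP1, a detoxifying transferase whose gene has copies, had 1154, 839.6 and 717 RPKM in MM.1S and at most 2 PETs in RPMI8226. LAMP5, a lysosome-associated protein, was at least 646-fold and BASP1, a membrane protein with copies, at least 377-fold higher in MM.1S.

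In RPMI8226, CALML3, a calmodulin-like protein of epithelia, was read at 168 and 171 RPKM and had no PET in MM.1S, which made it at least 979-fold higher in RPMI8226. KEL, the Kell blood group antigen of red cells, had 158 and 168 RPKM in RPMI8226 and no PET in MM.1S, at least 1815-fold higher. GTSF1, a germline factor of the piRNA pathway, was at least 435-fold higher in RPMI8226. CD8B, a chain of the T cell coreceptor CD8, had 161 and 159 RPKM in RPMI8226 and at most 1 PET in MM.1S. S100A4, a calcium-binding protein linked to motility, was read at 0, 0.651 and 0.267 RPKM in MM.1S and at 611 and 617 in RPMI8226, a 2004-fold difference. PVALB, a calcium buffer of muscle and neurons, and ACTL8, an actin-like protein of testis, were 372-fold and 2734-fold higher in RPMI8226. The libraries of each line lay close together at these genes, with both RPMI8226 libraries high and the 3 MM.1S libraries at or near 0.

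The promoters of the 2 highest genes of each line in this class, leaving out immunoglobulin genes and genes with copies, are shown as examples of genes on in MONO of a line and off in the other. Each sequence is the 250 bases before the start of the gene in RefSeq (build GRCh38.p14), 5′ to 3′ on the strand of the gene, and capitals mark CG dinucleotides, the sites of DNA methylation. They lie at chr4:41256678-41256927 on the + strand (UCHL1), chr4:74932866-74933115 on the + strand (PARM1), chr10:5524711-5524960 on the + strand (CALML3) and chr7:142962364-142962613 on the - strand (KEL).
UCHL1: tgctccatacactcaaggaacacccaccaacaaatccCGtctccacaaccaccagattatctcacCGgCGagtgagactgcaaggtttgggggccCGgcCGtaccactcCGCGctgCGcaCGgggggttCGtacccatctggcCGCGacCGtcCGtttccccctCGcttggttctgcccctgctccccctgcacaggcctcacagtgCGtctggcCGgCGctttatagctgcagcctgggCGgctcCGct
PARM1: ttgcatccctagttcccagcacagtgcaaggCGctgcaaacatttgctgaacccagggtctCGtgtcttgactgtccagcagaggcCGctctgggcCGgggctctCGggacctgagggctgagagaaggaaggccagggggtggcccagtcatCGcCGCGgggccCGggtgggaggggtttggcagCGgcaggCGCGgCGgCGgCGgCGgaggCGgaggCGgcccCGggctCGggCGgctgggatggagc
CALML3: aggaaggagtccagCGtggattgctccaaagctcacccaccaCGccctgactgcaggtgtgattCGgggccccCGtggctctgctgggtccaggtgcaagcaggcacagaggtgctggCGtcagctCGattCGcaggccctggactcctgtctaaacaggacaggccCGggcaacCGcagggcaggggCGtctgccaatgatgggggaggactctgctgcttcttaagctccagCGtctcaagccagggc
KEL: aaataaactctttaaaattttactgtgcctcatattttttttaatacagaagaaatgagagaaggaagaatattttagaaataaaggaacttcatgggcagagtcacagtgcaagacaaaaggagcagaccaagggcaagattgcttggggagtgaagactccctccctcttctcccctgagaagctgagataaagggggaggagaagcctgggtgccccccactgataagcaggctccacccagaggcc
CG reads alike on both strands and was counted without overlap. UCHL1 had 20 and PARM1 21, the median over the 8866 of 10990 tested genes with a promoter sequence was 21, and CALML3 had 11. KEL had 0, as did 0.677% of the promoters of tested genes and 6.39% of all 27305 promoters. At least 1 CG was present in 93.6% of all promoters. DNA methylation was not measured in these libraries.

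**Figure D4:**
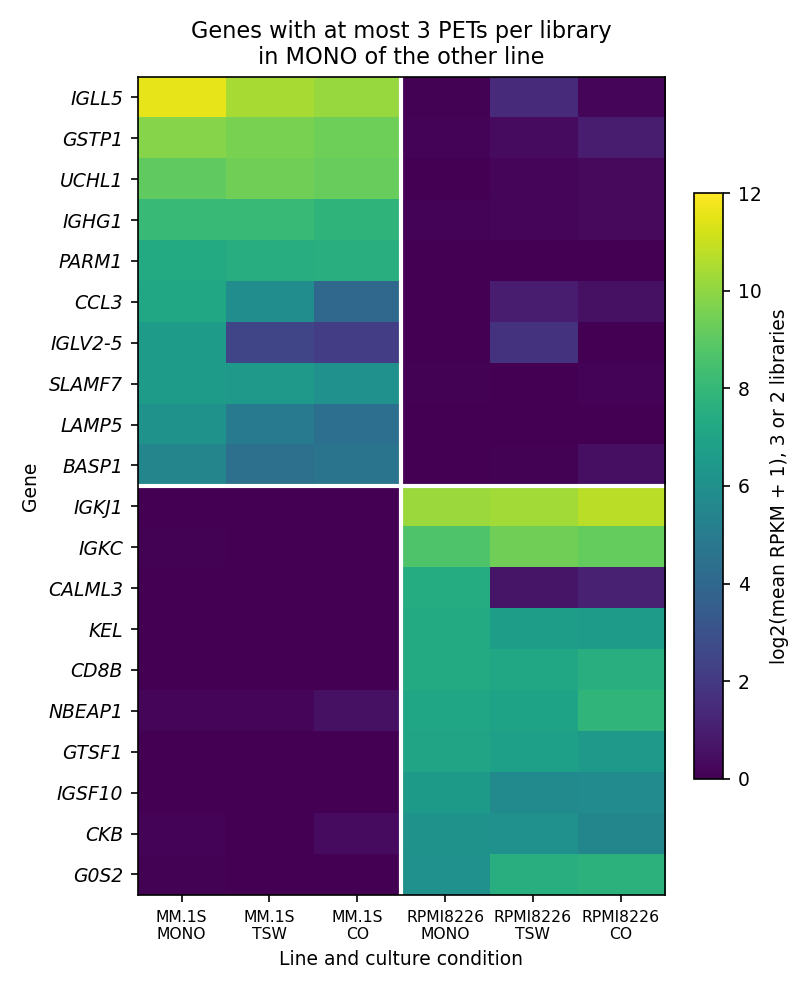
Colour gives log2(mean RPKM + 1) of the 10 highest genes on in MM.1S (top) and in RPMI8226 (bottom) among those off in MONO of the other line, for each line (3 or 2 libraries) in MONO, TSW and CO. Most keep their line in TSW and CO, while IGLV2-5 in MM.1S and CALML3 in RPMI8226 fall to under 5 RPKM in TSW and CO of their own line.

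The line difference was also measured in the TSW and CO libraries, none of which enter the MONO comparison. Of the 10990 genes, 5303 differed in TSW (48.3%) and 5437 in CO (49.5%). In TSW 26.3% were higher in MM.1S and 22.0% in RPMI8226, and in CO 28.2% and 21.2%. Over 4-fold, 3.13% were higher in MM.1S and 4.01% in RPMI8226 in TSW (together 7.14%), and 3.13% and 3.91% in CO (together 7.04%). The values of the lines did not overlap at 84.5% of the genes in TSW and 84.5% in CO. The share of calls higher in MM.1S was 54.5% in TSW and 57.1% in CO, but 49.2% and 49.1% under median-of-ratios scaling and 60.8% and 63.0% under totals without copied genes. Median-of-ratios scaling moved the median of all genes by -0.08 in TSW and -0.11 in CO. Of the 4766 genes called in MONO, 3341 were called in the same direction in TSW and 81 in the opposite one, and the counts for CO were 3280 and 92. Of the 812 genes over 4-fold apart in MONO, 783 (96.4%) were called in the same direction in TSW and 778 (95.8%) in CO. Across genes, which are not independent replicates, the log2 differences in MONO had r = 0.844 with those in TSW and r = 0.827 with those in CO.

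Of the genes off in RPMI8226 MONO, 33 also had at most 3 PETs in each RPMI8226 library of TSW and 29 in each of CO. Of the genes off in MM.1S MONO, 49 and 34 did so in MM.1S. SLAMF7 was at 0.0282 RPKM in TSW and 0.0884 in CO of RPMI8226, and KEL at 0.0178 and 0.0233 in MM.1S. On the expressing side, 33 and 32 of the 47 genes on in MM.1S had a mean of at least 10 RPKM in its TSW and CO libraries, and 45 and 46 of the 57 on in RPMI8226 did so. CALML3 was among those that fell below, at 169 ± 1.99 RPKM (SD, n = 2) in MONO of RPMI8226 but 0.601 in TSW and 1.18 in CO. IGLV2-5, a lambda variable gene with copies, fell from a mean of 98.9 RPKM in MONO of MM.1S to 4.74 in TSW and 3.60 in CO. Its MONO values were 5.96, 282 and 8.73 RPKM, so the mean rests on MM.1S MONO 2, and its call was lost without either RPMI8226 library, without the expression filter and with voom. FN1 in MM.1S was at 2.92 RPKM in MONO, 2.47 RPKM in TSW and 17.4 RPKM in CO, whose libraries can hold RNA of HS5 cells.

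Among the gene lists described here with at least 5 tested members, the medians of the MHC lists moved most between MONO and the other conditions. The median log2 difference of the class I genes was 0.03 in MONO, against -1.36 in TSW and -1.48 for CO, and 12 and 13 of 16 were higher in RPMI8226 in TSW and CO, beside 22.0% and 21.2% of all tested genes. For class II genes the medians were 1.01, 0.11 and 0.09. Of the 12 class II genes, 3 were higher in MM.1S and 2 in RPMI8226 in TSW, and 3 and 3 in CO, where 26.3% and 28.2% of all tested genes were higher in MM.1S in TSW and CO. HLA-DPA1 was higher in MM.1S in each condition, by 3.22, 2.86 and 2.57 on the log2 scale. These differences between conditions were not tested.

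**Figure D5:**
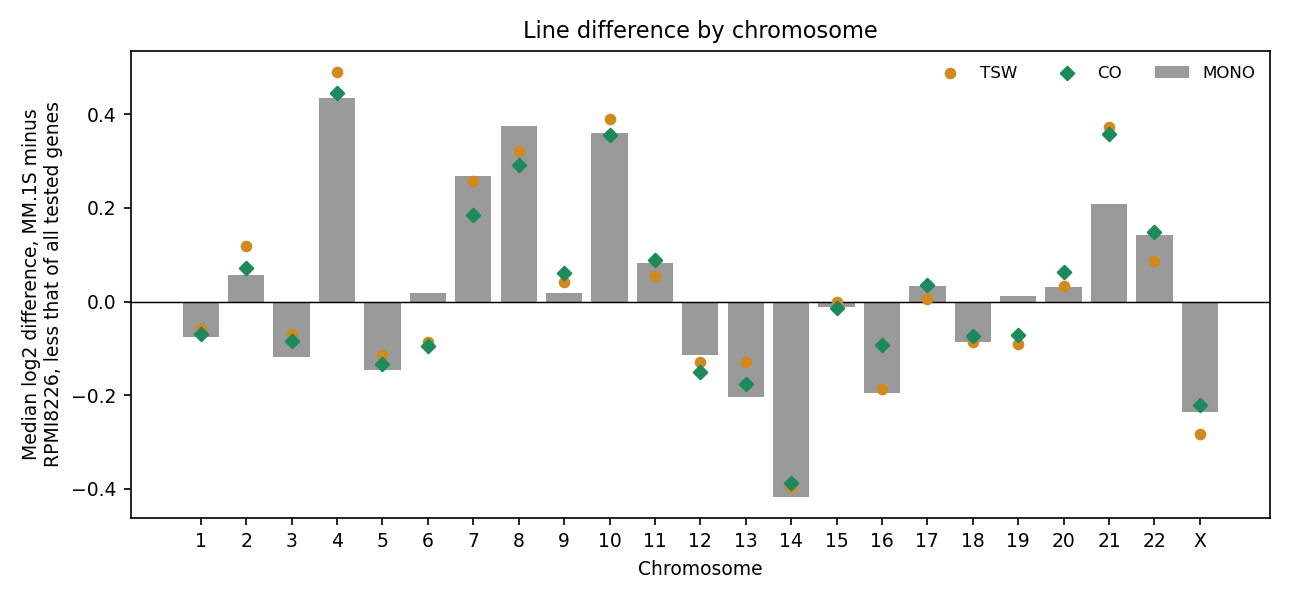
Bars give the median log2 difference (MM.1S minus RPMI8226) of the tested genes of each chromosome in MONO less the median of all tested genes, and points give the same in TSW and CO. Chromosomes 4, 8, 10 and 21 are above 0.2 and chromosomes 14 and X below -0.2 in all 3 conditions.

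By position, genes on chromosomes 4, 8 and 10 were shifted to MM.1S and genes on 14 to RPMI8226. The median log2 difference was 0.39 over 386 genes of chromosome 4, 0.33 over 378 genes of chromosome 8 and 0.32 over 410 genes of chromosome 10. It was -0.46 over 349 genes of chromosome 14 and -0.28 over 364 genes of chromosome X. These shifts had the same sign in TSW and CO. The 37 tested mitochondrial genes had a median of 0.47, with 10 higher in MM.1S and 0 in RPMI8226. All mitochondrial genes together took 5.86%, 5.97% and 6.89% of the PETs in MM.1S and 3.24% and 3.31% in RPMI8226. Among windows of 10 Mb with at least 20 tested genes, the highest median was 1.36 on chromosome 22 between 10 and 20 Mb, with 22 genes. The lowest was -1.04 on chromosome 12 between 110 and 120 Mb, with 55 genes. DNA copy number was not measured. Runs of at least 3 neighbouring genes with a mean of at least 1 RPKM in a line and at most 3 PETs in each MONO library of the other were chosen after their values were seen. In MM.1S they included RDM1, CCL3, CCL4, CCL3L3 and CCL4L2 on chromosome 17. In RPMI8226 they included the keratin genes KRT7, KRT86, KRT81, KRT83 and KRT8 on chromosome 12 and PASD1, MAGEA4, CSAG2, CSAG1, MAGEA12 and CSAG3 on chromosome X.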

How the data were processed

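RNA of sorted cells was sequenced by the authors, who deposited 1 table per line with log2 values of RPKM plus 1, with an offset of 0.0001 added, for each library. The tables were normalized separately by the authors. From these log2 values RPKM and whole pair-end tags (PETs) per gene were recovered, and the tables were joined on gene identifier. The planned design had assumed RPKM values, but the deposited unit is log2. Genes whose MONO mean reached 1 RPKM in either line were tested with limma 3.58.1 (R 4.3.3) on log2(RPKM + 1) with a mean-variance trend, separately in the 5 MONO, 5 TSW and 5 CO libraries. Calls needed an adjusted p (Benjamini-Hochberg) below 0.05 and more than 1.5-fold change. Values after ± are SD or SE as named. Ratios are of mean RPKM, and where 1 line had no PET the fold is at least that against 3 PETs per library. No ratio is given where a line had 1 to 3 PETs.

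The scripts ran in Python 3.11.15 with numpy 2.4.6, pandas 2.3.3 and matplotlib 3.10.9, and the fits were tested on simulated data. Named genes were the 12 largest differences in each direction among called genes without overlap, members of the gene lists, the 10 highest genes of each line that were off in the other, and housekeeping genes. XIST and Y-linked genes were left out of the named genes. Lists covered immunoglobulin, secretory, plasma cell, B cell, translocation, MAF, recurrently altered, surface, drug response, BCL2, cell cycle, NF-kappaB, MHC, cytokine, chemokine, adhesion, cancer-testis, proteasome and housekeeping genes and cell type markers. A further list is not reported here. The members and lists were chosen with earlier results of these data known. Alternatives were other scalings, filters, pseudocounts and thresholds, a correction for GC content and length, voom on recovered PETs, a replicate block and leaving out each library.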

Additional observations from a re-analysis of the deposited data

Results flagged for a closer look

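The line difference ran in opposite directions between culture conditions at 2 named genes, with each library of a line on the same side of the other line. MCL1 was higher in MM.1S in MONO (log2 difference 0.74) but higher in RPMI8226 in TSW (-1.39) and in CO (-1.65). CD74 was higher in MM.1S in MONO (0.99) and higher in RPMI8226 in CO (-0.61). The difference between conditions was not tested. For MCL1 the mean in RPMI8226 was 67.0 RPKM in MONO, 377 in TSW and 494 in CO, and in MM.1S it was 112, 143 and 157. For CD74 the mean in RPMI8226 was 529.7 RPKM in MONO and 904 in CO, and in MM.1S it was 1058 and 591. Technical and biological sources of these patterns cannot be told apart here.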

How the results depend on the processing

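The counts of genes higher in MM.1S (2263) and in RPMI8226 (2503) stayed within 1.5 times under other scalings, filters, pseudocounts and voom. With a correction for GC content and length, 2589 genes were higher in MM.1S and 2340 in RPMI8226, and 4478 of the 4766 genes stayed called in the same direction. A fold change over 4 left 384 and 428 genes, since that threshold is stricter. Leaving out 1 library gave 1507 to 2368 genes higher in MM.1S and 1677 to 2489 higher in RPMI8226. The lowest counts came without an RPMI8226 library, where the lone library left is assumed to vary like MM.1S. Alternatives for TSW and CO other than scaling were chosen after seeing the data: leaving out 1 library gave 5226 to 5310 genes in TSW and 5378 to 5526 in CO. With a replicate block, 2418 genes were higher in MM.1S and 2697 in RPMI8226, and the counts were 5283 in TSW and 5451 in CO. The samples share only their numbers, and the deviations of libraries with the same number correlated at 0.00258 (number 1) and 0.126 (number 2). Of 127 named genes none reversed under any alternative, and of 2564 values 43 fell below and 13 rose above a threshold.

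Only 2 or 3 libraries stood for each line, and nothing says that they were separate cultures. Line, table and any batch cannot be told apart. Depth limits genes near 0, where a few PETs decide whether a gene counts as off. Levels of genes with near-identical copies are uncertain, and DNA copy number and DNA methylation were not measured.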
